A study of Mus musculus with 16 samples.

Results

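The genes described here were 40 oocyte-specific and maternal-effect genes of the mouse, taken by name and read over their annotated gene bodies on the GRCm38 assembly. They were 40 of 21755 protein-coding genes on chromosomes 1 to 19 and X. All 40 held at least 20 CpG methylation calls in every group, and so did 20054 of the 21755 genes, which formed the tested background. The fewest calls a member had in a group were 70, for Rfpl4 in the IFC group.

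DNA methylation was measured in 16 libraries of pooled metaphase II (MII) oocytes by post-bisulphite adapter tagging (PBAT), a method that sequences bisulphite-converted DNA and reads each CpG as methylated or unmethylated. The oocytes of all groups came from F1 females of the cross C57BL/6J X CBA/Ca. The IFC group (4 pools) was grown by in vitro follicle culture and carries the age label 23 days, in which the days in culture are counted. The SO group (5 pools) was superovulated as prepubertal females of 23 days, the SOA group (4 pools) was superovulated as adults of 10 weeks, and the IV group (3 pools) ovulated naturally as adults of 10 weeks. By these labels IFC and SO share an age, SO and SOA share the hormonal stimulation, and SOA and IV share an age. IFC and SOA differ in both age and culture. By the study's methods the prepubertal SO females were given a lower gonadotropin dose than the SOA females, so that age and dose cannot be told apart. The IFC follicles were taken from females younger than those of SO and were given their hormones in culture, whereas SO and SOA females were injected. Culture, hormones and donor age therefore cannot be told apart in the comparisons with IFC. The labels do not state that each pool came from separate females, so that p-values measure the spread between these pools. The lysis step in the labels speaks of a blastocyst while the cell type given is oocytes, and the identity of the cells could not be checked with marker genes because the files hold DNA methylation and no RNA.

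Oocytes acquire DNA methylation as they grow, through the methyltransferase DNMT3A and its partner DNMT3L, and they acquire it mostly over transcribed gene bodies, while the promoters of active genes stay unmethylated. Oocyte-specific genes encode, among others, the zona pellucida coat and the transcription factors that switch on the oocyte programme. Maternal-effect genes are transcribed in the oocyte, but their products are needed by the embryo before its own genome is active.

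The depth of the libraries limits all values given here. They held between 5218053 and 23065411 calls, and the share of positions read by a single call ran from 65.5% to 91.5% per library. All 4 IFC libraries, SO1, SO2 and SOA1 to SOA3 held under 10000000 calls, and the other 7 held more. The 40 gene bodies together received between 1922 and 10236 calls per library. The library IV1 stood apart at low levels: over the genes whose bodies were below 20%, it had 16.0% of calls methylated, against 9.02% in IV2 and 8.31% in IV3. The study suspected a slight contamination of IV1 with DNA of somatic cells but kept the library, and this was not tested here. SO4 was also raised, at 11.3% against 8.51% to 9.14% in the other SO libraries. Over the 8 members below 20%, the values were 15.0% in IV1, 9.30% in IV2 and 9.65% in IV3, and 13.6% in SO4 and 12.5% in SO2 against 7.92% to 8.32% in the other SO libraries.

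Promoter sequences were found in RefSeq (GRCm38.p6) for 31 of the 40 members, at 42 transcription starts, each as 300 bases from 250 before to 50 after the start. No entry was matched for Bcl2l10, Dppa3, Gdf9, Mos, Nlrp14, Npm2, Oas1d, Zp1 and Zp2. Of the 29 member promoters with at least 20 calls over the 16 libraries, 28 were below 20% methylated and 1, start 3 of Zbed3, was at 49.4%. Among all promoters with 20 calls, 80.3% were below 20%, 8.83% lay from 20% to 80% and 10.8% were above 80%. A start inside a gene body differed from the outer start of the same gene in several members. The sequences of both starts of Nlrp5 and Tle6 and of starts 2 and 3 of Zbed3 are shown because within each pair 1 start was unmethylated and the other was not, and Zp3 is shown as a member with a lone unmethylated start. They are written 5′ to 3′ on the strand of the gene, and capitals mark CpGs.
Nlrp5 outer start, chr7:23385639-23385938, plus strand: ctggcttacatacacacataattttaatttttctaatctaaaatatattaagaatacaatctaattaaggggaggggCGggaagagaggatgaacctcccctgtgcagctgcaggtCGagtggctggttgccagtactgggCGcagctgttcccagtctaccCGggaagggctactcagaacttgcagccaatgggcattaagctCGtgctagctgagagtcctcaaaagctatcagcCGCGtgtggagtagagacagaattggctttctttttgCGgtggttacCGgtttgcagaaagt
Nlrp5 inner start, chr7:23403852-23404151, plus strand: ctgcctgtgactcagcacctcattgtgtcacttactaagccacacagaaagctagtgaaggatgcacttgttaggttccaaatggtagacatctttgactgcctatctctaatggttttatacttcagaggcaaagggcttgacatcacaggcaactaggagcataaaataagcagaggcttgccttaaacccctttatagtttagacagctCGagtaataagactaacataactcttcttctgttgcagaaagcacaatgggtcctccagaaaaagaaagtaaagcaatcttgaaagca
Tle6 outer start, chr10:81600851-81601150, minus strand: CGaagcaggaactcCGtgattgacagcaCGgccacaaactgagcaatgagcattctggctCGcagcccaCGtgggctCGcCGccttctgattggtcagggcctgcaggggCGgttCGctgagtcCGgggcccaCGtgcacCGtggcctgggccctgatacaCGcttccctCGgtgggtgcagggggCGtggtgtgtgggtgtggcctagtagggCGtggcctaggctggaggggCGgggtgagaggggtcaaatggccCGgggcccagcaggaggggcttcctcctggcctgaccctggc
Tle6 inner start, chr10:81597318-81597617, minus strand: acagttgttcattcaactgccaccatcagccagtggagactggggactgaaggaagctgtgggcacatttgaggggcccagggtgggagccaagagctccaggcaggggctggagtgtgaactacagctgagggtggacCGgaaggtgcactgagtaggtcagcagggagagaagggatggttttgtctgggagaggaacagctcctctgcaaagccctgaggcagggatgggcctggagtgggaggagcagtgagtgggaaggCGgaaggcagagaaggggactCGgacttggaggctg
Zbed3 start 2, chr13:95324575-95324874, plus strand: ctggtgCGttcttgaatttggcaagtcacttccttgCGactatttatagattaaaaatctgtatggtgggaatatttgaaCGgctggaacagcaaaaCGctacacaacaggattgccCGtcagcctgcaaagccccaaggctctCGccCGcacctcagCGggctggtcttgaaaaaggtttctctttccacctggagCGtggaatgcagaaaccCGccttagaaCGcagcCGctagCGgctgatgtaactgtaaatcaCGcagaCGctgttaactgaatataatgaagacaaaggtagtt
Zbed3 start 3, chr13:95326517-95326816, plus strand: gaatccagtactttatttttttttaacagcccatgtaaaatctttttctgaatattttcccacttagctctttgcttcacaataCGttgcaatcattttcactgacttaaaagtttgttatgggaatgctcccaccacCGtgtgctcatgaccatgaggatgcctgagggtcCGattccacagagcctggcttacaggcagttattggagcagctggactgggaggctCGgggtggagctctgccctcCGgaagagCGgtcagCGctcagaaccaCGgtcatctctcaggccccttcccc
Zp3 start, chr5:135979855-135980154, plus strand: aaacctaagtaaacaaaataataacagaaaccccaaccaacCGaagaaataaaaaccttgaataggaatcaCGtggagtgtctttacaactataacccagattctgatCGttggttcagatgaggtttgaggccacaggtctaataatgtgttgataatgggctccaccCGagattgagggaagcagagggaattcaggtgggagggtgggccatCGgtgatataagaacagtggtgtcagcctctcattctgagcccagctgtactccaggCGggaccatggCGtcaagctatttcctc

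The outer start of Nlrp5, with 9 CpGs, had 0 methylated calls of 82, which allows a share of up to 3.66%, and the inner start, with 1 CpG, had 9 methylated calls of 9. At Tle6, 2.50% of 80 calls were methylated over the 18 CpGs of the outer start, against 19 of 19 calls over the 3 CpGs of the inner start. Start 2 of Zbed3 was at 3.64% of 110 calls. Start 3 lay further into the gene. There IFC was at 37.5% of 8 calls, SO at 44.7% of 38, SOA at 55% of 20 and IV at 61.5% of 13, differences that were not tested. The single start of Zp3 was at 3.23% of 62 calls. Such limits and shares cover counting error only.

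The sequence CANNTG, the E-box letters that helix-loop-helix factors such as FIGLA and SOHLH1 recognise and which read the same on both strands, occurred in 37 of the 42 member promoters (88.1%) and in 72.3% of all 32619 promoters. The form CAGCTG, which is also counted among the CANNTG matches, occurred in 15 (35.7%) against 16.4% of all. The NOBOX element TAATTG, searched on both strands, occurred in 5 (11.9%) against 8.02%. Some members count with several starts that overlap, and a match describes letters only.

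Gene-body methylation of the members covered nearly the whole scale, from 91.3% at Nlrp4b to 1.23% at Mos, each as the mean of the 4 group means. In all, 8 members were below 20%, 24 lay from 20% to 80% and 8 were above 80%. The median member was at 56.4%. Of all 20054 genes, 29.3% were below 20%, 53.1% were from 20% to 80% and 17.7% were above 80%, with a median of 51.7%. Of 29 other oocyte-expressed genes that are not members, 3 were below 20% and 7 above 80%, with a median of 67.4%. Of 15 granulosa and cumulus cell genes, 8 were below 20% and 3 above 80%, with a median of 17.0%.

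**Figure D1:**
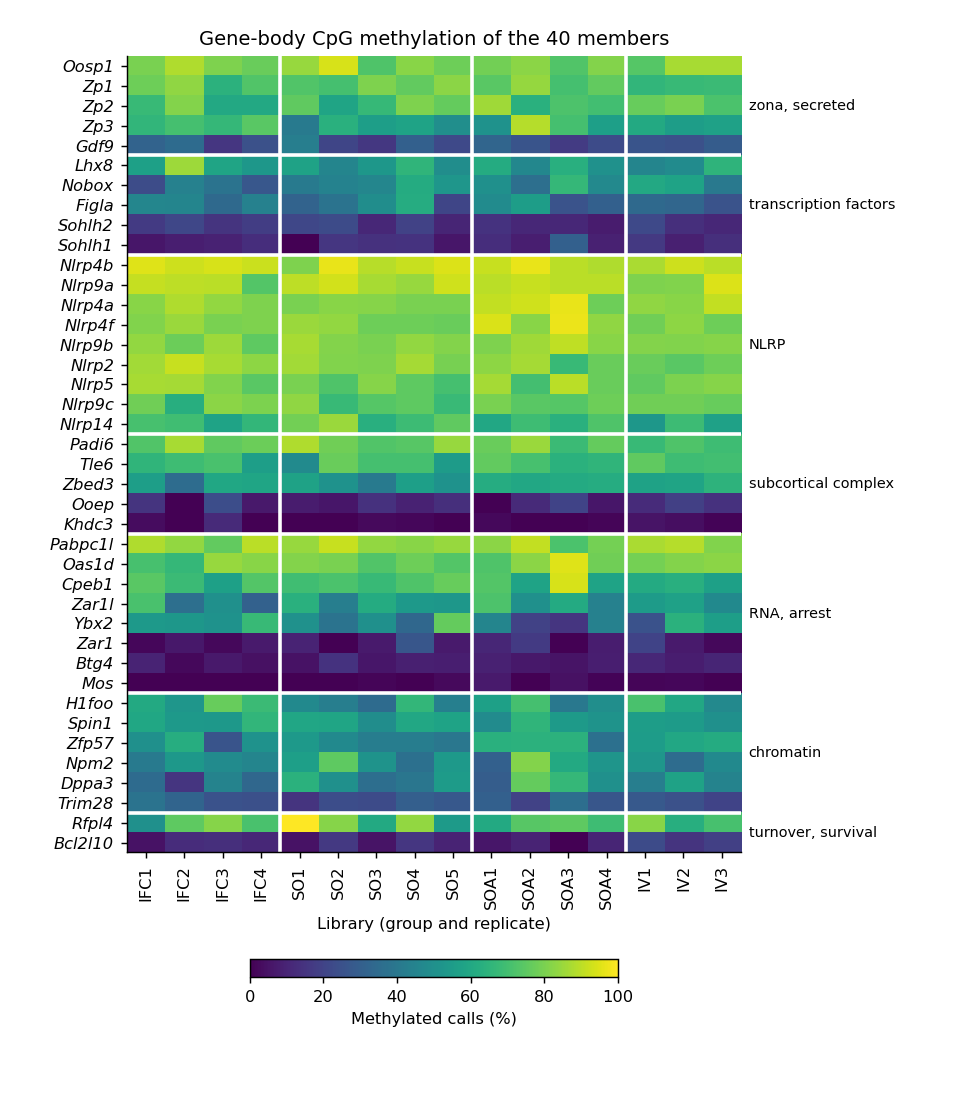
Percent of methylated CpG calls over the gene body (colour scale, 0 to 100%) of the 40 members (vertical axis, grouped by role) in the 16 libraries (horizontal axis). The NLRP genes form the most methylated block, with a median of 82.3%, whereas Mos, Khdc3, Btg4 and Zar1 had means from 1.23% to 8.35%.

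Among the zona pellucida and secreted factors, the coat glycoproteins Zp1, Zp2 and Zp3 were at 73.6%, 72.0% and 61.9%. Oosp1, an oocyte-secreted protein, was the highest of the list at 81.2%, and Gdf9, the growth factor through which the oocyte acts on granulosa cells, was at 26.2%. Of the transcription factors of the oocyte programme, none was above 80%: Lhx8 was at 56.4%, Nobox at 46.3% and Figla, the activator of the zona genes, at 38.4%. The helix-loop-helix factors Sohlh2 and Sohlh1, which act early in follicle formation, were at 15.4% and 11.9%.

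The NLRP genes were the highest list, with 6 of 9 above 80% and a median of 82.3%. Nlrp4b (91.3%), Nlrp9a (87.8%) and Nlrp4a (84.9%) were the 3 highest members of all. Of the other NLRP genes, Nlrp4f was at 82.7%, Nlrp9b at 82.3% and Nlrp2, a maternal-effect gene, at 81.1%. Nlrp5, which encodes the MATER protein of the subcortical maternal complex, fell just under the class limit at 79.6%, Nlrp9c was at 76.0% and Nlrp14 at 66.5%. Several Nlrp4 and Nlrp9 genes are close copies of each other, and how far reads were lost or misplaced between them was not tested.

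Nlrp4b (chr7:10687789-10730168, plus strand) had 95.1%, 92.5%, 93.8% and 92.1% of calls methylated in IFC1 to IFC4. It had 80.6%, 96.7%, 89.4%, 91.7% and 94.5% in SO1 to SO5, 91.5%, 96.7%, 89.7% and 88.1% in SOA1 to SOA4, and 87.3%, 92.4% and 89.8% in IV1 to IV3. The ranges of the 4 groups overlapped, and the lowest value, in SO1, rested on 31 calls. Nlrp9a (chr7:26535023-26575615, plus strand) was at 91.2%, 90%, 89.8% and 73.2% in IFC, at 90%, 93.3%, 86.7%, 84.4% and 92.7% in SO, at 89.7%, 91.4%, 89.7% and 89.7% in SOA, and at 80.7%, 81.0% and 94.6% in IV. Nlrp4a (chr7:26435113-26476142, plus strand) was at 82.1%, 88.1%, 83.8% and 80.9% in IFC, at 80%, 82.1%, 82.0%, 79.9% and 80% in SO, at 90.7%, 92.9%, 96.8% and 78.0% in SOA, and at 83.3%, 82.4% and 90.8% in IV. In SOA the 3 shallow libraries were above all SO libraries at Nlrp4a, whereas the deep library SOA4 was below all of them.

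Of the genes of the subcortical maternal complex and its partners outside the NLRP family, Padi6, which is needed for the cytoplasmic lattices of the egg, was at 76.1%, Tle6 at 67.5% and Zbed3 at 56.3%. Ooep and Khdc3, both subunits of the complex, were at 11.5% and 2.21%. Khdc3 (chr9:73101836-73104438, plus strand) was at 3.33%, 0%, 12% and 0% in IFC, at 0%, 0%, 2.60%, 1.85% and 0% in SO, at 1.96%, 0%, 0% and 1.52% in SOA, and at 5.17%, 3.77% and 0.8% in IV. The 0% values rest on 25 to 37 calls, which allow up to 12% at the fewest calls. All calls of Khdc3 lay in the part of its body that the annotation also assigns to Gm20509.

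The genes of RNA storage, translation and meiotic arrest spanned all 3 classes. Pabpc1l, an embryonic poly(A)-binding protein, was at 84.1%, Oas1d at 79.1%, Cpeb1, which controls the polyadenylation of stored mRNAs, at 67.7%, Zar1l at 53.1% and Ybx2, an mRNA-masking protein, at 46.4%. Zar1, Btg4, an adaptor for the removal of maternal mRNA, and Mos, the kinase that holds the egg at metaphase II, were at 8.35%, 7.87% and 1.23%. Mos (chr4:3870657-3872105, minus strand) had no methylated call in any IFC library, 0 of 94 calls, which allows up to 3.19%. It was at 0%, 0%, 1.18%, 0% and 2.50% in SO, at 7.14%, 0%, 4.55% and 0.98% in SOA, and at 1.39%, 1.61% and 0% in IV. Btg4 (chr9:51060901-51119875, plus strand) was at 10.1%, 1.98%, 6.84% and 4.37% in IFC, at 5.00%, 14.6%, 6.24%, 8.69% and 8.36% in SO, at 9.14%, 6.33%, 5.15% and 8.32% in SOA, and at 11.2%, 7.91% and 10.4% in IV. No group of either gene stood clear of the others.

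All 6 genes of chromatin, imprint protection and histone handling were from 20% to 80%. H1foo, the oocyte linker histone, was at 56.3%, Spin1 at 56.0%, Npm2, the histone chaperone that remodels sperm chromatin, at 50.7%, and Dppa3, whose protein protects maternal DNA methylation after fertilisation, at 46.3%. Zfp57 and Trim28, the zinc finger protein and its cofactor that keep imprints methylated in the embryo, were at 52.1% and 26.6%. Of the remaining members, Rfpl4, linked to protein turnover, was at 71.8%, and Bcl2l10, of the BCL2 survival family, at 11.6%.

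Zfp57 (chr17:37001163-37010635, plus strand) was at 50%, 62.2%, 25.8% and 50.8% in IFC, at 53.8%, 47.5%, 42.5%, 42.5% and 39.7% in SO, at 63.6%, 64.3%, 64.1% and 37.0% in SOA, and at 55.5%, 59.8% and 61.5% in IV. All groups overlapped with IFC, which spread the most, and SOA4, the deepest library, lay far below the other 3 of its group. Trim28 (chr7:12999114-13031035, plus strand) was at 38.3%, 32.2%, 25.3% and 24.3% in IFC, at 15.2%, 23.5%, 22.7%, 30.2% and 27.7% in SO, at 30.8%, 19.7%, 36.1% and 26.9% in SOA, and at 28.0%, 24.6% and 20.2% in IV. These ranges overlapped in all 4 comparisons.

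Along the genes, the members had low promoters and bodies that were more methylated towards their ends. Over the 40 members, 5.71% of calls were methylated in the 1000 bp before the start, 17.5% in the first of 10 equal parts of the body and 74.4% in the last part. The kilobase after the end was at 71.7%. Over all genes tested, the same positions were at 9.51%, 24.9%, 64.1% and 52.4%, so that the members were lower at the start and higher at the end. The 4 groups followed the same course, from 17.3% in IV to 17.7% in IFC in the first part, and from 70.9% in SO to 79.1% in IFC in the last. The shapes differed with the class of the body. The 8 members above 80% were at 8.82% before the start, 45.9% in part 1 and 91.8% in part 3. The 8 members below 20% were at 3.94%, 5.79% and 3.72% there, and still at 25.3% in part 10.

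**Figure D2:**
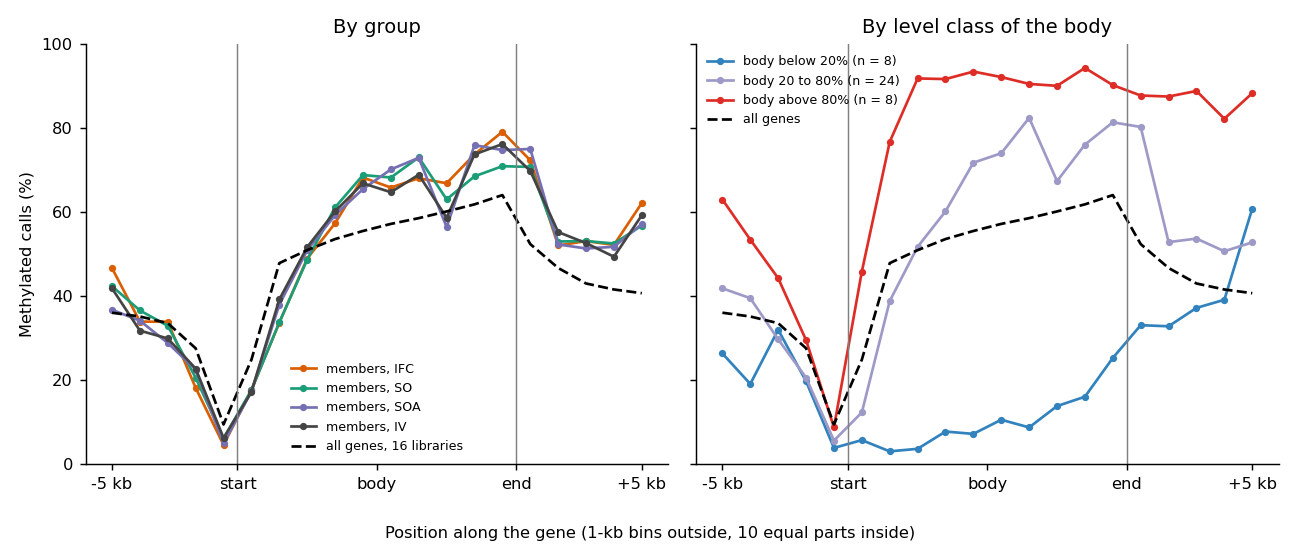
Percent of methylated calls (vertical axis) along the 40 members, in 1-kb bins from 5 kb before the start, 10 equal parts of the body and 1-kb bins to 5 kb after the end (horizontal axis), by group on the left and by level class of the body on the right, where the dashed line is the 20054 genes tested. The 4 group lines run from 4.65% in IFC to 6.28% in IV just before the start and are farthest apart in body part 8, from 56.5% in SOA to 66.9% in IFC. The lines of the lowest and highest class are farther apart inside the body than just before the start.

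The promoters of 1000 bp before the annotated start were below 20% in 35 of the 40 members, with a median of 2.97% (3.70% over all genes with 20 promoter calls). The exceptions were Nlrp9b at 69.8%, Trim28 at 47.7%, Cpeb1 at 26.5%, Figla at 25.9% and Zfp57 at 22.3%. At the 300 bases around their RefSeq starts, Trim28 was at 2.93% of 205 calls, Cpeb1 at 3.66% of 164 and Figla at 0 of 49, which allows up to 6.12%. Zfp57 was at 12.8% of 39, 11.7% of 60 and 1.54% of 65 calls at its 3 starts. The listed start of Nlrp9b (chr7:20007773-20008072) had 12 methylated calls of 13, fewer than the 20 asked of the others. It lies inside the annotated body, which begins at 19991465, so that the outer start of Nlrp9b was not read in this way. Only 15 member promoters had 20 calls in every group and could be tested, and none was called in any comparison by the moderated quasi-binomial test at an adjusted p of 0.05. Of all 12166 tested promoters, IFC vs SO called 0.00822%, the next 2 comparisons called 0% each and IFC vs SOA called 0.0329%. At an unadjusted p under 0.05 there was 1 member, Cpeb1 in IFC vs SO, and none in the others. Of all promoters, 5.27%, 6.35%, 6.19% and 5.16% reached this level in the 4 comparisons.

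An intermediate level of a body was in most cases a mixture of low and high stretches. Divided into windows of 10 CpGs, the 40 bodies gave 855 windows, of which 34.5% were below 20%, 16.4% from 20% to 80% and 49.1% above 80%. In all genes tested these shares were 36.3%, 17.7% and 46.0%. Of the 24 members from 20% to 80%, 23 held windows of both kinds, below 20% and above 80%. The exception was Gdf9, whose highest window was at 54.1%. In Lhx8, for example, 17 of 40 windows were below 20% and 22 above 80%. In Spin1 and Zbed3, by contrast, 22 of 56 and 14 of 31 windows were themselves intermediate.

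Members with more CpGs per length had lower bodies. Spearman's rho between CpGs per kb and the level of the body was -0.74 over the 40 members and -0.11 over the 20054 genes, and between length and level it was 0.62 and 0.32. These correlations run across genes of the same 16 libraries and describe the genes only. The median was 19.3 CpGs per kb for the members below 20%, 13.9 for those from 20% to 80% and 4.70 for those above 80%. Pabpc1l, with 12.9 CpGs per kb, was the densest member above 80%. Exons were above introns in 22 of the 38 members that could be compared and below them in 16, whereas over calls summed across the members exons were at 49.9% and introns at 56.6%. The largest gaps were at Zar1l, with 8.94% in exons and 67.9% in introns, and at Nobox, with 68.3% and 26.0%.

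As a set, the whole bodies of the members differed between groups by less than the SD between libraries, as the root of the mean variance of both groups. This SD was 1.42 points for IFC and SO, 2.05 for SO and SOA, 1.64 for SOA and IV and 1.68 for IFC and SOA. The difference between IFC and SOA was larger than the SD of IFC alone, and that between SOA and IV larger than the SD of IV alone. The differences with IFC were larger at the same windows, a reading given here that has no spread between libraries of its own. The mean over the 40 bodies was 53.4% ± 0.809 (SD, n = 4) in IFC, 53.5% ± 1.84 (n = 5) in SO, 54.5% ± 2.24 (n = 4) in SOA and 53.5% ± 0.602 (n = 3) in IV. By library it was 53.7%, 54.3%, 53.1% and 52.4% in IFC, 54.7%, 54.1%, 50.9%, 55.4% and 52.3% in SO, 54.6%, 56.6%, 55.4% and 51.4% in SOA, and 53.6%, 54.0% and 52.8% in IV. Every library lay within the range of another group, apart from SO3, which was the lowest, and SOA2, which was the highest. Over all genes, IFC had a mean of 49.7% ± 1.72, SO of 48.9% ± 0.941, SOA of 49.2% ± 2.04 and IV of 47.8% ± 1.47. The 9 shallow libraries had a mean of 54.3% over the members and the 7 deep libraries 52.9%, as against 49.9% and 47.8% over all genes, and the part of depth in group differences was not tested. Read at the same windows in both groups, as the mean over windows of 10 CpGs with at least 5 calls in each group, fewer members were higher in IFC. IFC was higher than SO in 10 of the 40 members and higher than SOA in 10, against 20 and 18 over whole bodies. The median difference over the members was -1.57 points for IFC minus SO and -1.92 points for IFC minus SOA. Over all genes with such windows, IFC was higher in 51.1% and 54.4% of genes, with medians of 0.06 and 0.29 points. Over the members the mean difference at the same windows was -1.89 points for IFC minus SO and -2.53 points for IFC minus SOA, against -0.115 and -1.11 points over whole bodies. It was -0.625 points for SO minus SOA and -0.594 points for SOA minus IV, where the sign turned from 0.987 points over whole bodies. SO was higher than SOA in 18 members, against 54.9% of all genes, and SOA higher than IV in 22, against 46.7%, with medians over the members of -0.12 and 0.25 points. This reading sums the calls of a group over its libraries and counts each window equally, whereas the whole-body values are means over libraries. A change between them therefore mixes place and weighting. The reading at the same windows was added after the data were seen and carries no test.

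**Figure D3:**
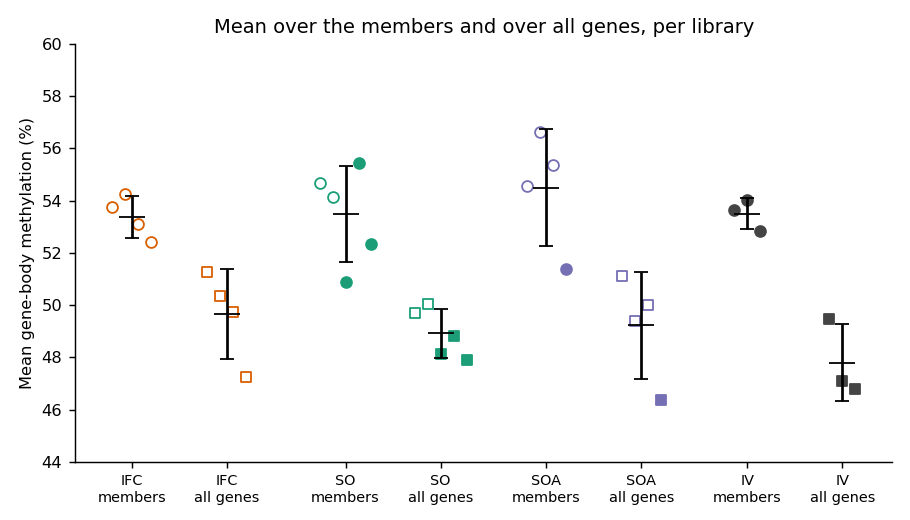
Mean gene-body methylation in percent (vertical axis, from 44 to 60) over the 40 members (circles) and over all 20054 genes (squares) in each library, by group (horizontal axis). Filled symbols are libraries with at least 10000000 calls, open symbols are shallower ones, and bars give the group mean and SD. The members were above all genes in every library. The member means of single libraries ran from 50.9% to 56.6%, with group ranges that overlap, and the group means ran from 53.4% in IFC to 54.5% in SOA.

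The 4 comparisons asked whether follicle culture (IFC vs SO), sexual immaturity (SO vs SOA), superovulation (SOA vs IV) or both culture and age (IFC vs SOA) went with a change at single members. All but SOA vs IV also carry the differences in hormones, dose or donor age named above. The comparisons share groups with each other, so their values are given side by side only. In the moderated quasi-binomial test, a logistic model of the calls whose dispersion was moderated across genes with limma, none of the 40 bodies was called at an adjusted p of 0.05 in any comparison. Of all 20054 bodies, IFC vs SO called 0.269%, SO vs SOA called 1.47%, SOA vs IV called 0% and IFC vs SOA called 2.39%. None of the other 29 oocyte genes and none of the 15 granulosa and cumulus cell genes was called either. limma on the sample percentages also called no member, against 0.125%, 0.658%, 0% and 2.01% of all genes in the order of the comparisons. edgeR on the counts called none either, against 0.244%, 0.927%, 0% and 2% of all genes.

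At an unadjusted p under 0.05, the quasi-binomial test gave 4 members in IFC vs SO (10%, against 7.3% of all genes). SO vs SOA gave 1 (2.5% against 9.82%), SOA vs IV gave 1 (2.5% against 8.35%) and IFC vs SOA gave 2 (5% against 12.4%). limma gave 3, 2, 2 and 6 members at this level, against 7.42%, 9.14%, 6.28% and 12.8% of all genes. edgeR gave 1, 0, 0 and 2, against 6.46%, 8.14%, 6.58% and 11.4%. The likelihood-ratio test, which takes every call as independent, called 5, 4, 5 and 7 members after adjustment, against 19.3%, 23.9%, 24.7% and 28.2% of all genes. Unadjusted, it gave 11, 7, 10 and 11 members, against 30.9%, 34.5%, 35.9% and 38% of all genes.

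The samples of the 2 groups did not overlap for 1 member in IFC vs SO (Zp3), for 1 in SO vs SOA (Zbed3), for 2 in SOA vs IV (Bcl2l10 and Zp1) and for 3 in IFC vs SOA (Sohlh2, Ybx2 and Zbed3). Among all genes with values in every sample of the groups, 2.96%, 4.16%, 6.57% and 7.65% did not overlap. The 95% intervals hold both counting error and the spread between pools. The whole interval lay within 20 points of 0 for 32, 34, 32 and 30 of the 40 members in the 4 comparisons, and within 10 points for 8, 11, 13 and 4. The median half-width was 10.2, 9.13, 9.61 and 10.7 points.

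**Figure D4:**
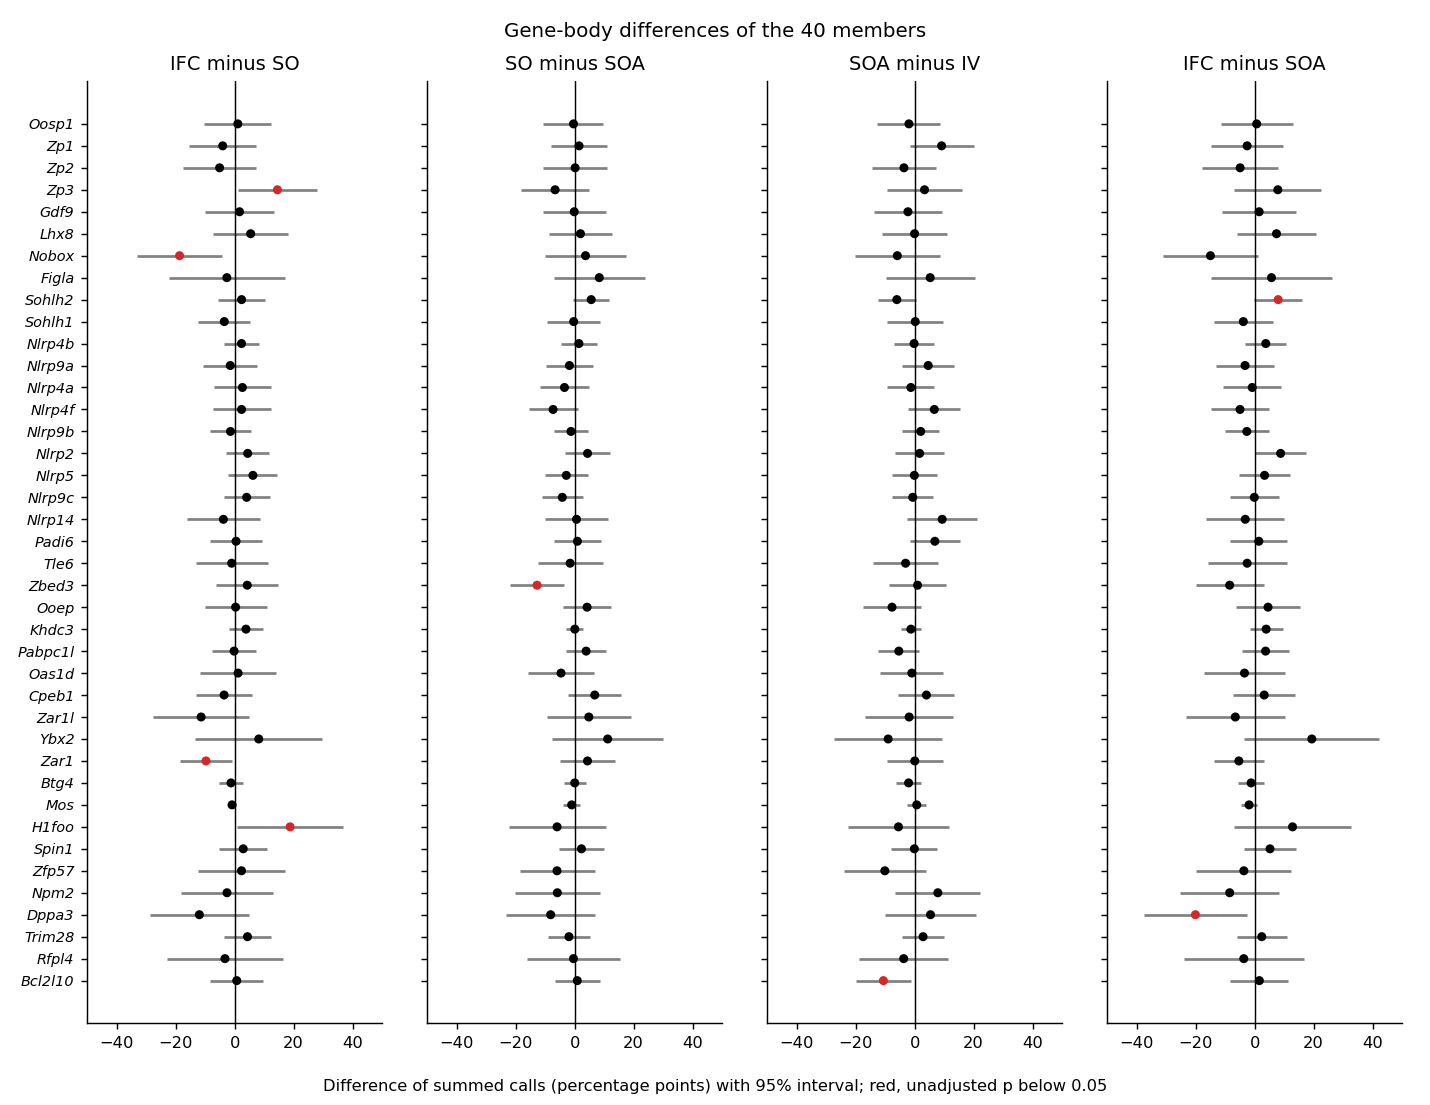
Difference in gene-body methylation between groups in percentage points (horizontal axes) for the 40 members (vertical axis) in the 4 comparisons, with points for the difference of summed calls and lines for the 95% interval. Red points mark an unadjusted p under 0.05, 8 in all, and no member passed the adjusted threshold.

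The members with an unadjusted p under 0.05 in the quasi-binomial test are described next, and were chosen after their values were seen. Because a body is read at different CpGs in each library, each is also given as the mean over the windows of 10 CpGs with at least 5 calls in both groups, which reads the groups at the same places. In these window values the calls are summed over the libraries of a group, and each window counts equally. Nobox (chr6:43303674-43309554, minus strand) was at 23.4%, 44%, 38.2% and 27.3% in IFC, at 41.2%, 44.4%, 46.1%, 61.5% and 52.7% in SO, at 50%, 36.4%, 66.7% and 47.0% in SOA, and at 60.3%, 58.0% and 40.5% in IV. The IFC libraries were the lowest group, although IFC2 reached into the SO range. The difference between IFC and SO was -18.7 points in summed calls (95% interval -33.2 to -4.16, adjusted p = 0.526), and over the same 6 windows IFC was at 34.7% and SO at 47.8%.

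Zp3 (chr5:135980099-135988624, plus strand) was at 65.8%, 70.6%, 66.7% and 74.4% in IFC, at 41.2%, 63.6%, 56.1%, 58.2% and 49.5% in SO, at 51.1%, 88.9%, 70.4% and 56.6% in SOA, and at 60.7%, 55.6% and 57.1% in IV. Every IFC library was above every SO library. The difference was 14.5 points in summed calls (0.998 to 28.0, adjusted p = 0.663), but at the same 11 windows the direction turned, with 62.4% in IFC and 69.7% in SO.

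H1foo (chr6:115944938-115950236, plus strand) was at 60.6%, 52.6%, 76.9% and 68.2% in IFC and at 47.6%, 42.9%, 35.1%, 66.1% and 43.1% in SO, where SO4 alone reached the IFC range. SOA was at 56.7%, 70.6%, 40% and 49.3%, and IV at 71.4%, 60% and 47.1%. The difference between IFC and SO was 18.8 points (0.964 to 36.7, adjusted p = 0.669), and over the same 6 windows IFC was at 58.3% and SO at 47.4%.

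Zar1 (chr5:72576806-72581254, minus strand), the low egg-to-embryo transition gene, was at 1.59%, 6.25%, 2.22% and 7.41% in IFC and at 9.80%, 0%, 7.37%, 26.9% and 7.14% in SO. SOA was at 10.7%, 17.0%, 0% and 7.89%, and IV at 20.0%, 7.41% and 2.27%. A single library, SO4, was far above the rest of its group. The difference of the group means was -5.87 points with SO4 and -1.71 points without it. The difference between IFC and SO was -9.72 points in summed calls (-18.4 to -1.01, adjusted p = 0.672), and over the same 11 windows IFC was at 3.40% against 10.8%.

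Bcl2l10 (chr9:75347758-75351632, plus strand) was at 5.88%, 10.0%, 0% and 10.3% in SOA and at 22.8%, 15.2% and 18.99% in IV, so that every IV library was above every SOA library. The 0% of SOA3 rested on 8 calls, which allows up to 37.5%, above every IV value. IFC was at 4.76%, 12.5%, 13.3% and 11.1%, and SO at 5.00%, 16.7%, 5.36%, 16.0% and 10.0%. SOA minus IV was -10.6 points in summed calls (-19.997 to -1.21, adjusted p = 0.576), and over the same 6 windows SOA was at 8.64% and IV at 18.8%. IV1, the library with raised low levels, had the highest value. The difference of the group means was -12.5 points with IV1 and -10.6 points without it.

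Sohlh2 (chr3:55182028-55209957, plus strand) was at 17.1%, 21.1%, 15.1% and 18.2% in IFC, at 21.4%, 22.7%, 11.01%, 19.7% and 10.3% in SO, at 14.6%, 11.1%, 11.1% and 7.71% in SOA, and at 21.9%, 13.5% and 10.97% in IV. Every IFC library was above every SOA library, the closest being IFC3 and SOA1. IFC minus SOA was 7.98 points in summed calls (-0.171 to 16.1, adjusted p = 0.396), with 18.2% against 9.85% at the same 29 windows. The interval still included 0.

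Dppa3 (chr6:122626410-122630272, plus strand) had its lowest group mean in IFC, with 35.1%, 15.4%, 44.8% and 33.3%. It was at 63.8%, 50%, 36.0%, 39.3% and 55.0% in SO, at 29.4%, 76.5%, 66.7% and 50.4% in SOA, and at 42.9%, 57.7% and 44.9% in IV. IFC minus SOA was -20.1 points in summed calls (-37.6 to -2.59, adjusted p = 0.322), and SOA1 was within the IFC range. Over the same 9 windows IFC was at 31.0% and SOA at 42.4%. The widest gap was in the middle of the gene. In the window 2.28 kb from the start, 25.0% of 12 calls were methylated in IFC, against 84.8% of 66 in SO, 95% of 60 in SOA and 77.4% of 31 in IV.

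Zbed3 (chr13:95323612-95337841, plus strand) was at 56.0%, 35.5%, 59.4% and 59.0% in IFC, at 57.8%, 51.0%, 40.9%, 56.2% and 50.9% in SO, at 61.8%, 59.8%, 61.1% and 61.8% in SOA, and at 57.8%, 58.5% and 64.5% in IV. Every SOA library was above every SO and every IFC library. SO minus SOA was -12.8 points (-22.0 to -3.51, adjusted p = 0.225), the smallest adjusted p of any member in any comparison. As group means it was -9.75 points with SO3, the lowest SO library, and -7.13 points without it. Over the same 31 windows SO was at 48.9% and SOA at 63.1%, with SO lower in 23 windows and higher in 7.

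Ybx2 (chr11:69935796-69941605, plus strand) is described because its tile was called. Its body had no unadjusted p under 0.05 in the quasi-binomial test, but in IFC vs SOA it did in limma (adjusted p = 0.283), edgeR (adjusted p = 0.430) and the likelihood-ratio test (adjusted p = 0.00159). In SO vs SOA the likelihood-ratio test also called the body at an adjusted p under 0.05. It had the widest range of group means, with 56.4% ± 7.53 (SD, n = 4) in IFC, 49.7% ± 16.7 (n = 5) in SO, 31.1% ± 15.8 (n = 4) in SOA and 48.4% ± 20.6 (n = 3) in IV. By library it was at 54.1%, 52.9%, 51.1% and 67.6% in IFC, at 50.7%, 38.1%, 50%, 33.3% and 76.4% in SO, at 45.5%, 19.6%, 15.4% and 44.03% in SOA, and at 25.0%, 64.0% and 56.1% in IV. Every IFC library was above every SOA library. In summed calls IFC minus SOA was 19.4 points (-3.48 to 42.3, adjusted p = 0.523) and SO minus SOA was 11.2 points (-7.67 to 30.1, adjusted p = 0.778), both by the quasi-binomial test with intervals that include 0. The IFC libraries had no call in 8 of the 16 windows, all within 0.567 kb of the start, where the other groups were at 1.12% of 268 calls. Over the 8 windows with calls in both groups, IFC was at 56.1% and SOA at 59.7%, and over the 11 shared by SO and SOA they were at 45.0% and 43.4%. As means over libraries, the whole-body difference was 25.3 points between IFC and SOA and 18.6 points between SO and SOA. At the same windows, with calls summed over the libraries of a group and each window counted equally, the differences were -3.55 and 1.55 points. The change thus mixes place and weighting, whose parts were not told apart.

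**Figure D5:**
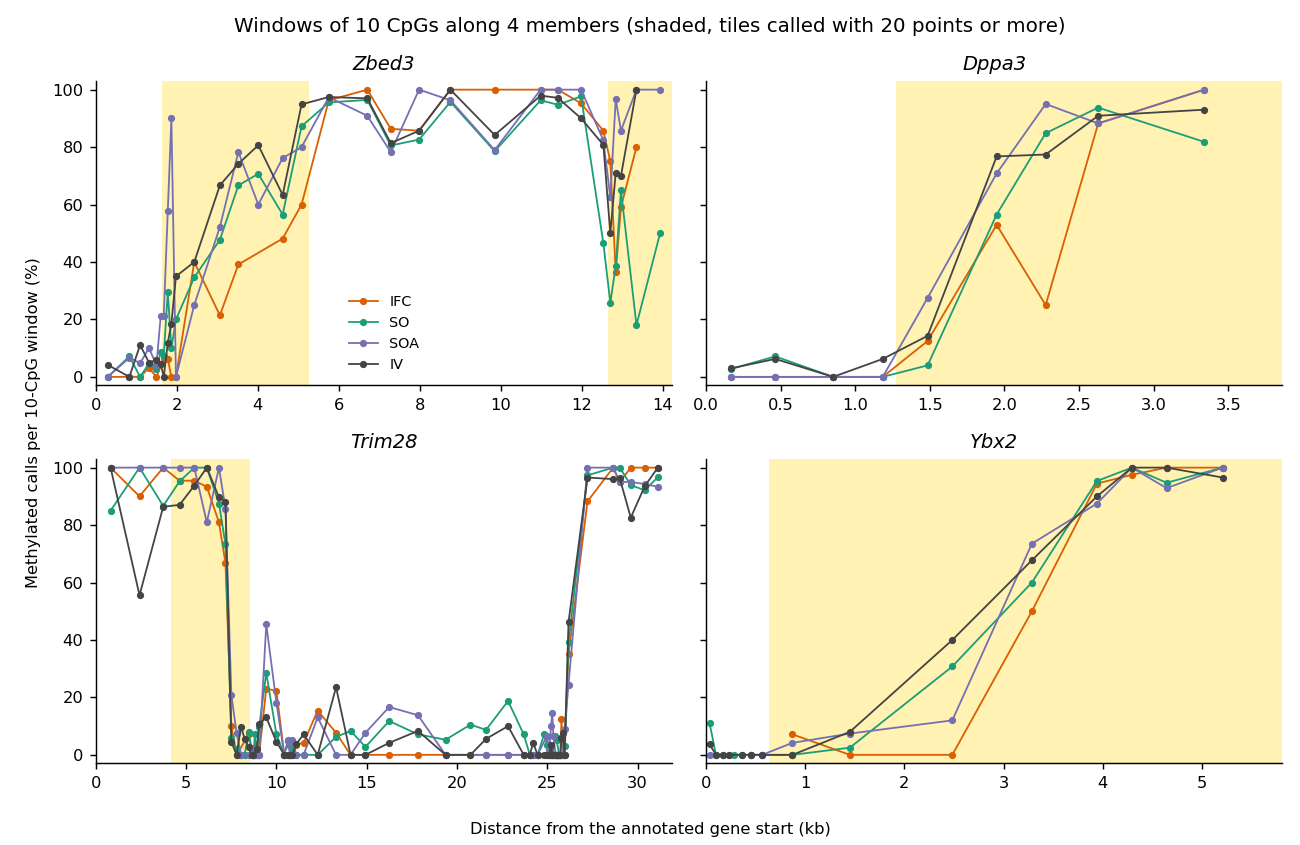
Percent of methylated calls (vertical axis) in windows of 10 CpGs along Zbed3, Dppa3, Trim28 and Ybx2, by distance from the annotated gene start in kb (horizontal axis), as group values where a group had at least 5 calls. Shading marks tiles called with 20 points or more. In Zbed3 the SO line dips to 25.8% and 18.03% near the end of the gene, where SOA is at 62.5% and 100%, and in Dppa3 the IFC line alone falls to 25.0% in the middle. The lines sum the calls of a group over its libraries, and SO3 was the lowest SO library in the tile at the end of Zbed3.

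In tiles of 100 CpGs tested with the likelihood-ratio test of the logistic model, 3 of 122 tiles over members were called with at least 20 points in IFC vs SO (all tiles, 1.12%). SO vs SOA gave 3 of 121 (1.87%), SOA vs IV gave 1 of 121 (0.35%) and IFC vs SOA gave 3 of 119 (3.83%). Without the limit of 20 points, 11, 9, 5 and 6 tiles over members were called, against 4.46%, 9%, 6.46% and 11.4% of all tiles. With each library left out in turn, the counts ran from 1 of 122 (without IFC4 or SO3; all tiles, 1.29% and 1.16%) to 6 of 123 (without IFC2; 1.27%) in IFC vs SO. In SO vs SOA they ran from 2 to 4 of 121 to 123, against 1.83% to 2.37% of all tiles. In SOA vs IV they ran from 0 (without SOA3 or IV2; all tiles, 0.367% and 0.616%) to 5 of 121 (without SOA4; 0.720%). In IFC vs SOA they ran from 1 of 120 (without IFC2; all tiles, 3.86%) to 4 of 119 or 120 (without SOA4 or SOA1; 4.21% and 3.86%). On a grid of tiles shifted by 50 CpGs, the calls over members were 1 of 120, 1 of 116, 0 of 116 and 0 of 116, both at Nlrp9c, against 1.12%, 1.92%, 0.357% and 3.88% of all tiles. On this grid the members' share was below that of all tiles in each comparison, but on counts of 0 or 1 that were not tested. On the first grid it was above that of all tiles in each comparison but IFC vs SOA. Under the quasi-binomial test, which takes up the spread between pools, 2 of the 10 calls of the first grid were below an adjusted p of 0.05, 1 of 122 in IFC vs SO and 1 of 121 in SO vs SOA. Of all tiles, this test called 0.332%, 1.11%, 0% and 2.45% with 20 points. Group means without 1 library, a reading added after the data were seen, fell under 20 points for at least 1 left-out library in 7 of the 10 called tiles. The smallest of these were -17.8 points at Khdc3 without SO5, -15.1 at Cpeb1 without SO1, -16.2 at Dppa3 without SOA2 and -14.4 at the end of Zbed3 without SO3 (-16.7 in IFC vs SOA without IFC2). At Ybx2 they were 17.7 points without SO5 in SO vs SOA and -17.4 without IV2 in SOA vs IV. The tiles at Trim28, at Nlrp9c and inside Zbed3 kept 20 points without any 1 library.

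The first of the 2 calls below the quasi-binomial threshold was at Trim28 in IFC vs SO (chr7:13003302-13007670). The tile was at 64.0%, 75.0%, 65.8% and 63.2% in IFC and at 31.8%, 45.2%, 37.8%, 48.6% and 38.6% in SO, a difference of 26.6 points without overlap (adjusted p = 7.22e-06 by the likelihood-ratio test and 0.0291 by the quasi-binomial test). SOA was at 42.1%, 48.7%, 100% and 48.9%, and IV at 53.1%, 40.7% and 37.7%. The tile crosses a steep step in methylation, and what the step does to the difference was not tested. In the windows given here that held IFC calls, from 10 to 21 each, IFC was below SO before the step. In the window just after the step IFC was above SO, but on 10 IFC calls, too few to give a direction. In the window of Trim28 at 6.82 kb, before the step, IFC was at 81.0% of 21 calls and SO at 87.5% of 32, and at 7.18 kb IFC was at 66.7% of 12 and SO at 73.3% of 30. After the step, at 7.504 kb, IFC was at 10% of 10 calls and SO at 5.88% of 34. At 8.04 kb, IFC had no call and SO had no methylated call of 64. The tile also lies over Zbtb45 on the minus strand. It is 16482 bp from the RefSeq start of Trim28 and outside the RefSeq span of the gene, which is 6881 bp long against 31922 bp here. Over the RefSeq span, Trim28 was at 77.6%, 40.2%, 24.1% and 96.6% in IFC, from 29 to 116 calls each, and at 16.3%, 39.2%, 41.9%, 43.0% and 43.5% in SO. The body of Trim28 itself was not called in either form. Over the 55 windows of the body with at least 5 calls in both groups, IFC was at 26.4% and SO at 27.9%, a difference of -1.54 points. IFC was lower in 30 of these windows and higher in 14. As means over libraries the whole-body difference was 6.15 points, so that place and weighting are mixed. In 3 windows of the body IFC had no call, and the other groups were at 4.26% of 258 calls there. The tile alone was not read in this way.

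The second call below that threshold was at Zbed3 in SO vs SOA (chr13:95336250-95342392), a tile that covers the end of the gene with 25.9% of its length. It was at 85.5%, 68.8%, 44.5%, 84.2% and 75.0% in SO and at 91.5%, 93.3%, 100% and 86.3% in SOA, a difference of -21.2 points without overlap (adjusted p = 1.49e-17 and 0.00660). SO3 was the lowest SO library, and without it the difference of the means was -14.4 points, under the limit of 20. IFC was at 58.7%, 56.8%, 93.0% and 76.5%, and IV at 77.6%, 79.9% and 92.0%. The fewest covered positions in any compared library were 8 at this tile in SO vs SOA and 19 at the Trim28 tile in IFC vs SO. Neither tile therefore entered the alternative that asked for 20 positions per tile. In the window 12.7 kb from the start of Zbed3, SO was at 25.8% of 66 calls and SOA at 62.5% of 16, and in the window at 13.3 kb they were at 18.03% of 61 and 100% of 13. In IFC vs SOA the same tile differed by -21.5 points with overlap. The tile chr13:95325241-95328880, inside the gene, was at 19.2%, 17.4%, 40% and 35.4% in IFC and at 51.9%, 44.4%, 78.9% and 48.9% in SOA, a difference of -28.0 points without overlap. In the windows of Zbed3 at 3.06 kb and 3.52 kb, within that tile, IFC was at 21.4% of 14 and 39.1% of 23 calls and SOA at 52.2% of 23 and 78.3% of 23. The quasi-binomial adjusted p was 0.0573 and 0.0579 for these 2 tiles in IFC vs SOA.

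The other called tiles were past the threshold of the likelihood-ratio test only. At Dppa3 (chr6:122627685-122633960, 41.2% of it inside the gene), IFC was at 31.0%, 20.0%, 39.4% and 32.1% and SOA at 44%, 73.3%, 51.4% and 45.1%, without overlap (-22.8 points, adjusted p = 0.00365, and 0.244 by the quasi-binomial test). At Ybx2 (chr11:69936429-69942767), SOA was at 52.0%, 47.8%, 42.1% and 52.9%. It was below all SO libraries, at 66.7%, 70.4%, 58.6%, 69.9% and 78.2% (20.0 points, 0.0368 and 0.299), and below all IV libraries, at 60.5%, 77.7% and 71.7% (-21.2 points, 0.00514 and 0.685). This tile begins after the windows of Ybx2 in which IFC had no call, and it too spans a rise from 2.74% in the window at 0.872 kb to 98.6% in that at 5.21 kb. Inside it SOA was below SO at 2.48 kb (12% of 25 calls and 30.8% of 13) but above it at 3.28 kb (73.5% of 34 and 60% of 25).

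At Khdc3 (chr9:73103475-73112060, 11.2% of it inside the gene), IFC was at 34.3%, 20.0%, 30.4% and 25.0% and SO at 38.5%, 34.6%, 54.9%, 52.9% and 60.2% (-20.8 points, adjusted p = 0.000842 and 0.142). Most of this tile lies beyond the body. At Cpeb1 (chr7:81454978-81463825, 5.52% of it inside the gene), IFC was at 54.2%, 61.5%, 42.1% and 34.2% and SO at 95.2%, 61.9%, 81.0%, 61.9% and 47.6%, with overlap (-21.5 points, 0.00226 and 0.347). At Nlrp9c (chr7:26336950-26346011), SO was at 53.8%, 26.5%, 41.3%, 58.6% and 36.0% and SOA at 84.6%, 55.9%, 70.0% and 71.8%, again with overlap (-27.3 points, 0.00108 and 0.0792). IFC and IV were at 41.7% to 89.3% and 63.3% to 68.3% there. The Nlrp9c tile lies in a part of the annotated body that is not within the RefSeq span.

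For the bodies of the members with called tiles, Nlrp9c (chr7:26322473-26403700, minus strand) was at 78.2%, 62.7%, 82.6% and 80.3% in IFC, at 83.3%, 67.5%, 73.5%, 75.1% and 67.9% in SO, at 79.8%, 74.5%, 73.7% and 77.9% in SOA, and at 78.3%, 78.5% and 76.9% in IV. Cpeb1 (chr7:81347026-81455465, minus strand) was at 74.6%, 68.1%, 56.7% and 73.3% in IFC, at 69.3%, 71.8%, 67.5%, 72.4% and 76.7% in SO, at 73.4%, 57.8%, 93.8% and 58.0% in SOA, and at 61.0%, 63.0% and 56.8% in IV. All groups of both bodies overlapped in the comparisons made, and SOA3 alone set the upper end of Cpeb1, the member with the highest dispersion.

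The span that the annotation gives a gene moved some levels. With RefSeq spans in place of the annotated bodies, Trim28 was at 45.8% in place of 26.6%, Nlrp9c at 83.8% in place of 76.0% and Btg4 at 12.1% in place of 7.87%. Khdc3 was at 4.82% in place of 2.21%. Npm2 was at 41.6% in place of 50.7%, Nobox at 38.7% in place of 46.3% and Spin1 at 49.4% in place of 56.0%. Npm2 was at 64.6% in the part of its body that no other gene covers and at 16.8% in the part it shares with Xpo7. No member was called with RefSeq spans in any comparison by the quasi-binomial test, while 0.29%, 1.49%, 0% and 2.31% of the 19310 genes so tested were.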

How the data were processed

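DNA methylation was measured by PBAT in 16 libraries of MII oocytes. The authors trimmed the reads (Trim Galore 0.4.4, cutadapt 1.9.1 in the submitters' processing notes), mapped them to GRCm38 with Bismark 0.19.0 and deposited, for each position, the percent methylation and the methylated and unmethylated counts. The deposited percent column equals the counts' ratio, and only the counts were summed.

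Counts were summed over GENCODE M21 gene bodies, promoters (1000 bp upstream), windows of 10 CpGs and tiles of 100 CpGs. Bodies and promoters with at least 20 calls in every group entered a logistic model over all 16 samples, with a quasi-binomial F test whose dispersion was moderated by limma 3.58.1 (R 4.3.3), two-sided, adjusted by Benjamini-Hochberg at 0.05 over all genes. Tiles with 5 positions in every sample were called at an adjusted p of 0.05 and 20 points. Libraries are named by group and replicate number of the labels. Intervals are 95% intervals of the difference of summed calls. edgeR 4.0.16 was an alternative. The fits were tested on simulated data.

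Full values are given for members with a called tile or body, the 3 highest, the 3 lowest, and Dppa3, Zfp57 and Trim28. Members with an unadjusted p under 0.05 in the quasi-binomial test were added after their values were seen. The members and lists were chosen with earlier results of these data known. Of 32 other oocyte genes listed, 29 could be tested.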

Additional observations from a re-analysis of the deposited data

Results flagged for a closer look

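In 7 of the 122 groups of 4 or 5 libraries examined over the members, 1 library stood apart from the others of its group by Dixon's criterion, which chance meets in about 1 in 20 groups.

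The body of Pabpc1l was at 91.5% in SO2, with the other SO libraries from 82.2% to 84.7%. Lhx8 was at 85.2% in IFC2 on 61 calls, with the other IFC libraries from 53.1% to 58.4%. Nlrp9a was at 73.2% in IFC4 (the others from 89.8% to 91.2%) and at 91.4% in SOA2 (the others all at 89.7%), so that the second departure spans under 2 points. Spin1 was at 49.2% in SO3 on 624 calls, with the other SO libraries from 58.2% to 60%. Zbed3 was at 35.5% in IFC2, with the other IFC libraries from 56.0% to 59.4%. Zfp57 was at 37.0% in SOA4, with the other SOA libraries from 63.6% to 64.3%.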

How the results depend on the processing

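No member was called in its body in any comparison under any alternative other than the likelihood-ratio test, which called 5, 4, 5 and 7 members in the 4 comparisons in the order of the report, and promoters of members gave no call under any alternative. Of all promoters, the likelihood-ratio test called 171, 198, 187 and 236 of 12166, so that 0 of 15 members is near that share, and with promoters extended upstream the quasi-binomial test called 2, 0, 0 and 9 of 16244. The calls of tiles over members depended on the settings. From 3, 3, 1 and 3, they changed to 0 in every comparison at 30 points, where 0.195%, 0.391%, 0.0510% and 1.17% of all tiles were called. With 20 positions per tile they were 1 of 38, 0 of 28, 0 of 49 and 0 of 32, against 1.20%, 1.98%, 0.135% and 4.07% of all tiles. They were 1, 1, 0 and 0 under the quasi-binomial test (all tiles, 0.332%, 1.11%, 0% and 2.45%), and 1, 1, 0 and 0 on the shifted grid (1.12%, 1.92%, 0.357% and 3.88%). With single libraries left out they ran from 1 to 6, from 2 to 4, from 0 to 5 and from 1 to 4, against 1.15% to 1.34%, 1.83% to 2.37%, 0.314% to 0.720% and 3.86% to 4.21% of all tiles. The difference of the set means with deep libraries alone was 1.51 points for SO vs SOA and -2.12 points for SOA vs IV, where SOA4 is the only deep SOA library. With shallow libraries alone, IFC was below SO (-1.01 points) and SOA (-2.15 points), and SO below SOA (-1.13 points). At the same windows the difference of the set means was -1.89 points for IFC vs SO (-0.115 over whole bodies), -2.53 for IFC vs SOA (-1.11) and -0.594 for SOA vs IV (0.987). The window reading also weights libraries and CpGs in another way than the whole bodies. With single libraries left out, the difference of the set means over whole bodies ran from -0.763 to 0.371 in IFC vs SO and from -2.03 to -0.280 in SO vs SOA. It ran from 0.272 to 2.02 in SOA vs IV and from -2.15 to -0.396 in IFC vs SOA. The cause of these shifts was not tested. Among the named members, 1515 of 1554 alternative values changed neither call nor size beyond the spread, 23 moved, and 16 passed the threshold, all by the likelihood-ratio test. Many of these values could not change in size. The limma, edgeR, replicate-block and likelihood-ratio alternatives, with 76 values each, use the same difference as the main fit. The filters of 5 calls per sample and 50 calls per group, also with 76 values each, removed no member. In 98 of the 1554 the difference had the other sign.

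With the replicate number as a block, 0 members were called in each comparison, and 60, 248, 0 and 452 of all genes. Same-numbered samples of different groups correlated between -0.073 and 0.063 in their deviations from the group means (median 0.011, 21 pairs, 18293 genes). For other pairs the range was -0.078 to 0.118 (median -0.0045, 74 pairs). Only 4 of 16 samples correlated best with their own number, so that no general pairing by number was seen. IFC4, SO4 and SOA4 correlated at 0.050 to 0.063 with each other and at 0.060 to 0.118 with IV1. A factor shared by these libraries was not tested.

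Depth limits the comparisons. Libraries cover different CpGs of the same body, and 22 values of 6 members in single libraries rest on no methylated call, which allows from 6.82% to 37.5%.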
